A study of Homo sapiens with 9 samples.

Results

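The proteasome genes were taken from the expression table as the rows whose symbol begins with PSMA, PSMB, PSMC, PSMD, PSME, PSMF or PSMG and a number, together with POMP. The 3 immunoproteasome subunits PSMB8, PSMB9 and PSMB10 were set apart, and no pseudogene or antisense symbol matched. This left 46 of the 17529 genes in the table. They comprised 14 core particle subunits, 17 regulatory particle subunits and 13 assembly factors, activators and inhibitors. Another 2 matched by their letters alone: PSMC3IP, a meiotic recombination factor, and PSME3IP1, a protein that binds PSME3. PSMA8 and PSMB11, the testis and thymus subunits, were not analysed here.

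The proteasome is the large protease that degrades proteins tagged with ubiquitin. Its core particle is a barrel of alpha rings, which form the gate, and beta rings, which hold the catalytic sites. The regulatory particle caps the barrel: its base has a ring of ATPases that unfold and thread the substrate, and its lid removes the ubiquitin chain. Dedicated chaperones assemble both, and other activators can replace the cap. Subunit genes are known to be transcribed together, and NFE2L1 (the factor also called NRF1) raises them when the protease is impaired. Proliferating cancer cells depend on the complex, which is the target of drugs used against myeloma.

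RNA-seq was done on cells labelled NCI-H69, an established human small cell lung cancer line, 48 hours after siRNA transfection. The NC group received a negative control siRNA. The si_CSNK2B group received one that targets CSNK2B, which encodes the beta subunit of the kinase CK2, and the si_P300 group one that targets the histone acetyltransferase p300 (EP300). Each group had 3 libraries labelled as biological replicates, all from the same line, and siRNA sequences are not given in the sources used here. The comparisons are each knockdown group against NC, which both share, and the knockdown groups against each other.

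Total counts were 13.1 to 18.3 M per library, so that 3 counts, taken as the floor, correspond to 0.165 to 0.223 CPM (counts of a gene scaled to a common library total, with TMM factors). These floors and all intervals cover counting error or the spread between libraries only. CSNK2B was measured at 193, 168 and 185 CPM in the NC libraries, 168, 149 and 139 CPM in the si_CSNK2B libraries and 158, 148 and 163 CPM in the si_P300 libraries. Its log2 difference from NC was -0.26 ± 0.104 (SE, edgeR adjusted p = 0.0732) in si_CSNK2B. EP300 differed by -0.30 ± 0.127 (SE, edgeR adjusted p = 0.101) in si_P300, so neither targeted gene passed the test. CSNK2B passed with DESeq2 (adjusted p = 0.0451) and, in edgeR, without si_CSNK2B replicate 1 (adjusted p = 0.0347). In the group treated with the other siRNA, EP300 differed by -0.27 (si_CSNK2B) and CSNK2B by -0.22 (si_P300), also not called, so neither decrease was shown to be specific to its siRNA. The neuroendocrine markers known for the labelled line were near the floor. Of 8 listed, 5 had rows, their summed level was 0.713 to 1.24 CPM in NC, and NCAM1 was at 0 in 2 of 3 NC libraries, while 5 epithelial markers summed to 5852 to 6703 CPM. The libraries are described by their labels. In bulk RNA, fewer cells of a type and less RNA per cell cannot be told apart. Leukocyte markers summed to 0.932 to 1.36 CPM in NC and fibroblast markers to 17.2 to 19.5 CPM. Nearly all of the fibroblast sum was COL1A1, at 17.9, 18.7 and 16.5 CPM in the NC libraries, while DCN was at 0 in all 3.

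Most proteasome genes did not pass the test, and those that did differed from NC by at most 0.66 on the log2 scale. Of 46 genes, 45 passed the filter on low counts. In si_CSNK2B, 5 rose and 2 fell at an adjusted p under 0.05 (edgeR quasi-likelihood test, adjusted over 13129 genes). That is 15.6% of the tested proteasome genes, whereas 34.0% of all tested genes were called. By direction, 16.2% of all tested genes rose and 17.8% fell. In si_P300, 7 rose and 1 fell, or 17.8%, against 28.3% of all tested genes. Over all tested genes 13.6% rose and 14.7% fell. The median log2 difference of the proteasome genes was 0.07 in si_CSNK2B and 0.09 in si_P300, and over all tested genes it was 0.04 in both. Differences smaller than 0.5 on the log2 scale were found for 41 and 43 of the 45 genes (91.1% and 95.6%), against 67.8% and 72.4% of all tested genes. All tested genes include some at far lower counts than most proteasome genes. The comparison was not matched for level, and the part of level in it was not tested.

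The split of calls depended on the scaling. With library sizes alone the counts became 17 higher and 1 lower in si_CSNK2B, and 13 higher and 0 lower in si_P300. That scaling moved the median of all genes to 0.16 and 0.15, so directions are given here relative to TMM. The libraries of the groups did not overlap for 15 proteasome genes in si_CSNK2B, against 53.0% of all tested genes, and for 16 in si_P300, against 46.5%.

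**Figure D1:**
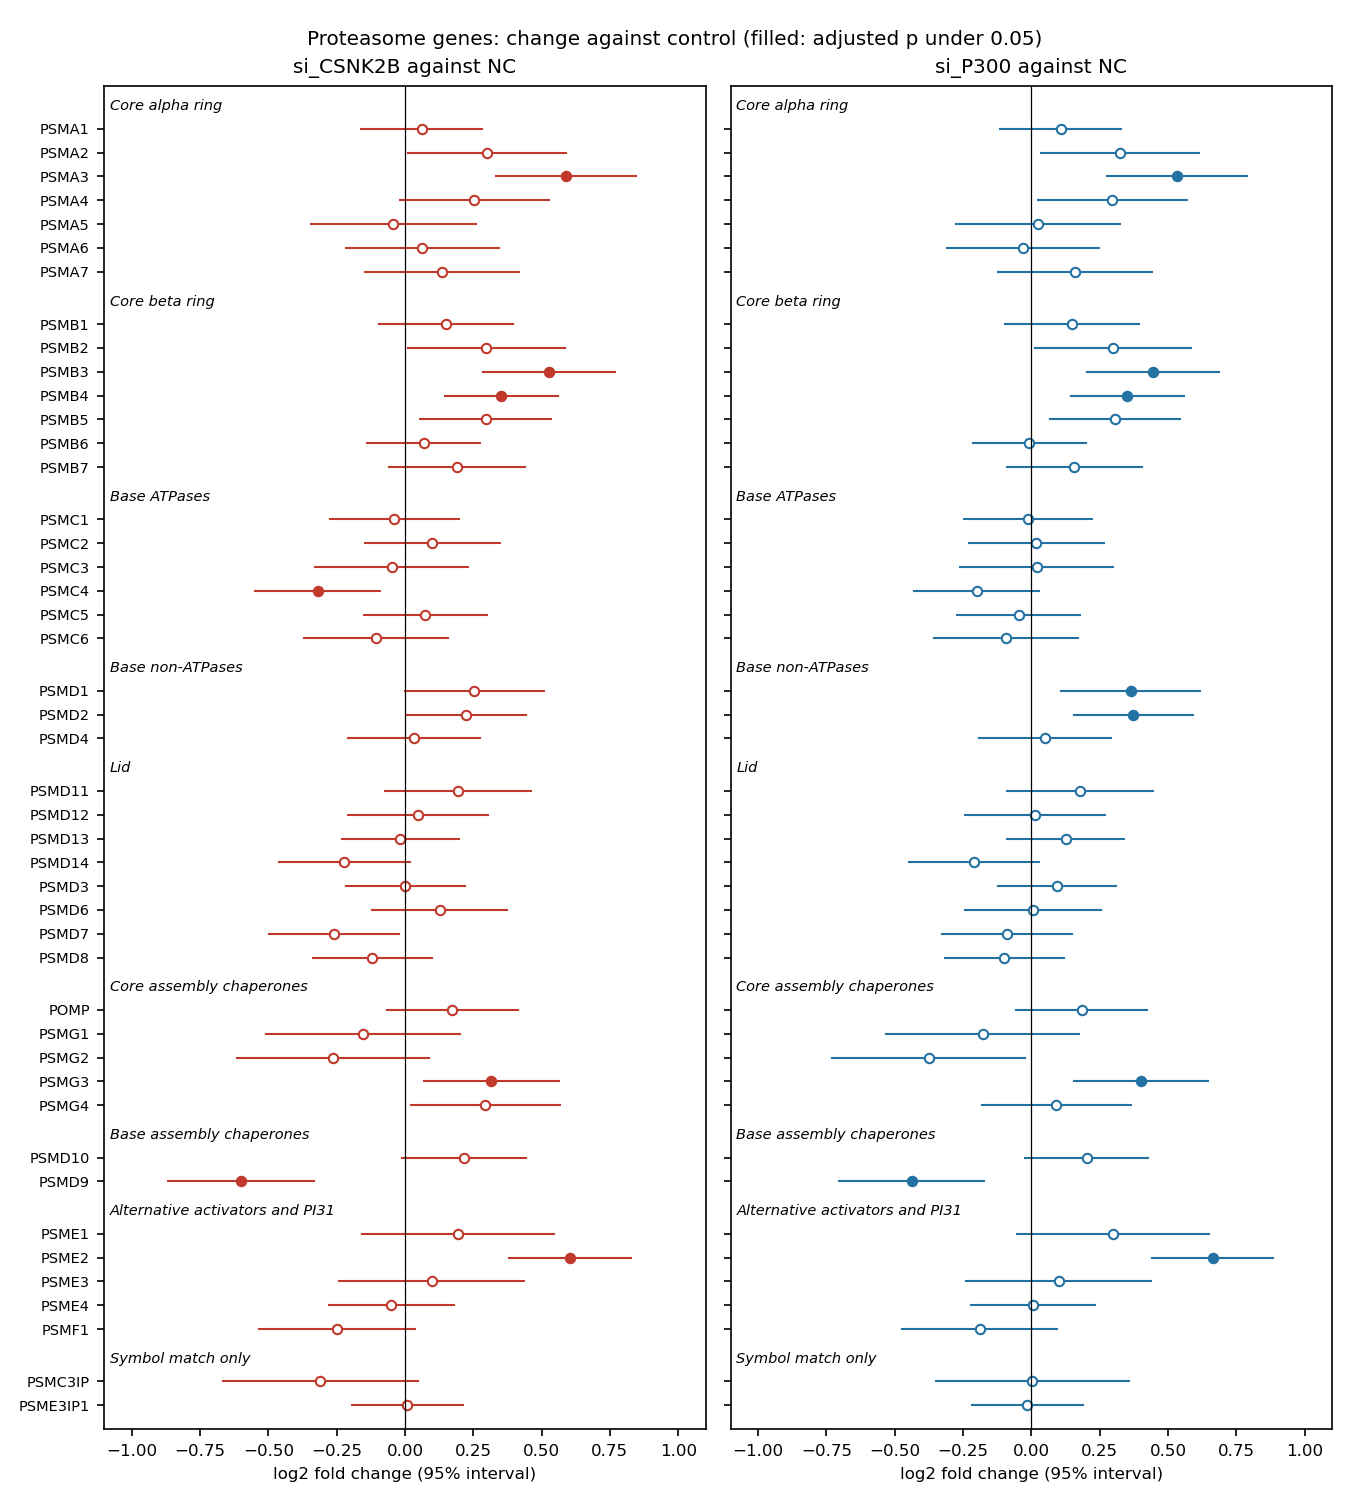
Log2 fold change (x axis) of the 45 tested proteasome genes (y axis, by role) in si_CSNK2B (left) and si_P300 (right) against the shared NC group; points are edgeR estimates, lines 95% intervals, and filled points passed an adjusted p of 0.05. Most intervals include 0, the core rings lie mostly to the right of 0, and PSMD9 is the furthest to the left at -0.60 and -0.44.

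The core particle held 3 of the genes that rose in each comparison: PSMA3 in the alpha ring, and PSMB3 and PSMB4 in the beta ring. Both comparisons share the NC libraries, so they are not independent. None of the 14 core genes fell at the threshold. Their median difference was 0.22 in si_CSNK2B and 0.23 in si_P300, and estimates were above 0 for 13 and 12 of them, against 6974 and 7067 of all 13129 tested genes. The 3 that rose are 21.4% of the core genes, where 16.2% and 13.6% of all tested genes rose. The core median was 0.106 in si_CSNK2B without si_CSNK2B replicate 1, and 0.151 in si_P300 without NC replicate 2.

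PSMA3, an alpha ring subunit, was measured at 233, 249 and 261 CPM in the NC libraries, 436, 354 and 329.6 CPM in the si_CSNK2B libraries and 333, 362 and 379 CPM in the si_P300 libraries. All 6 knockdown libraries lay above all 3 NC libraries, and si_CSNK2B replicate 1 was the highest. The log2 difference was 0.59 ± 0.118 (SE, edgeR adjusted p = 0.00264) in si_CSNK2B and 0.53 ± 0.118 (SE, edgeR adjusted p = 0.00626) in si_P300. It stayed past the threshold in 19 of 19 alternative fits in si_CSNK2B and in 19 of 19 in si_P300. The gene overlaps the antisense gene PSMA3-AS1, and because the strand setting of the counting is not stated, reads of the pair cannot be told apart.

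PSMB3, a beta ring subunit without a catalytic site, was measured at 155, 143 and 165 CPM in the NC libraries, 247, 201 and 219 CPM in the si_CSNK2B libraries and 192, 218 and 222 CPM in the si_P300 libraries. Again the knockdown libraries lay above NC without overlap. It rose by 0.53 ± 0.111 (SE, edgeR adjusted p = 0.00361) in si_CSNK2B and 0.45 ± 0.111 (SE, edgeR adjusted p = 0.0114) in si_P300. In si_P300 the call was lost without NC replicate 2 (0.0726), the adjusted p (from edgeR unless another tool is named) being given in brackets here and below. Losses under a replicate block or on TPM values are left to the section on processing.

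PSMB4, another beta subunit without a catalytic site, was measured at 272, 251 and 278 CPM in the NC libraries, 357, 337 and 329 CPM in the si_CSNK2B libraries and 320.5, 358 and 343 CPM in the si_P300 libraries. The spread within each group was small, with an SD of 14.5, 14.6 and 19.0 CPM, and the knockdown libraries did not overlap NC. The difference was 0.35 ± 0.0942 (SE, edgeR adjusted p = 0.0132) in si_CSNK2B and 0.35 ± 0.0941 (SE, edgeR adjusted p = 0.0164) in si_P300. The call was lost without NC replicate 2 (0.0736) in si_CSNK2B, and without NC replicate 1 (0.058) and without NC replicate 2 (0.101) in si_P300.

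The catalytic subunits did not pass the test in either comparison. PSMB5, which carries the chymotrypsin-like site and is the main target of proteasome inhibitor drugs, was measured at 175, 166 and 189 CPM in the NC libraries, 214, 218 and 219 CPM in the si_CSNK2B libraries and 191, 248 and 217 CPM in the si_P300 libraries. Its groups did not overlap, and its difference of 0.29 ± 0.109 (SE, edgeR adjusted p = 0.0559) in si_CSNK2B and 0.31 ± 0.109 (SE, edgeR adjusted p = 0.0554) in si_P300 lay just outside the threshold. DESeq2 placed it inside, with adjusted p-values of 0.04 and 0.0436. In all, PSMB5 passed in 9 of 19 alternatives in si_CSNK2B and in 7 of 19 in si_P300. In both comparisons these included library sizes alone, a stricter filter and the limma fits on TPM values. PSMB6 (caspase-like site) had differences of 0.07 and -0.01 with 95% intervals of -0.14 to 0.27 and -0.21 to 0.20. For PSMB7 (trypsin-like site) they were 0.19 and 0.16, with intervals of -0.06 to 0.44 and -0.09 to 0.40.

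Among the other alpha subunits, PSMA2 was measured at 127, 121 and 139 CPM in the NC libraries, 195, 140.2 and 141 CPM in the si_CSNK2B libraries and 156, 169 and 159 CPM in the si_P300 libraries. Its level in si_CSNK2B replicate 1 stood well above the other libraries of that group. The difference was 0.30 ± 0.132 (SE, edgeR adjusted p = 0.0991) in si_CSNK2B and 0.32 ± 0.132 (SE, edgeR adjusted p = 0.0882) in si_P300, although the groups did not overlap. Without si_CSNK2B replicate 1 the difference in si_CSNK2B was 0.12. PSMA4 differed by 0.25 and 0.30 and PSMA7 by 0.13 and 0.16 in si_CSNK2B and si_P300. PSMA1 and PSMA5 had estimates between -0.04 and 0.11. PSMA6 had 0.06 and -0.03. In the beta ring, PSMB1 differed by 0.15 and 0.15 and PSMB2 by 0.30 and 0.30, with libraries of the groups overlapping for both.

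**Figure D2:**
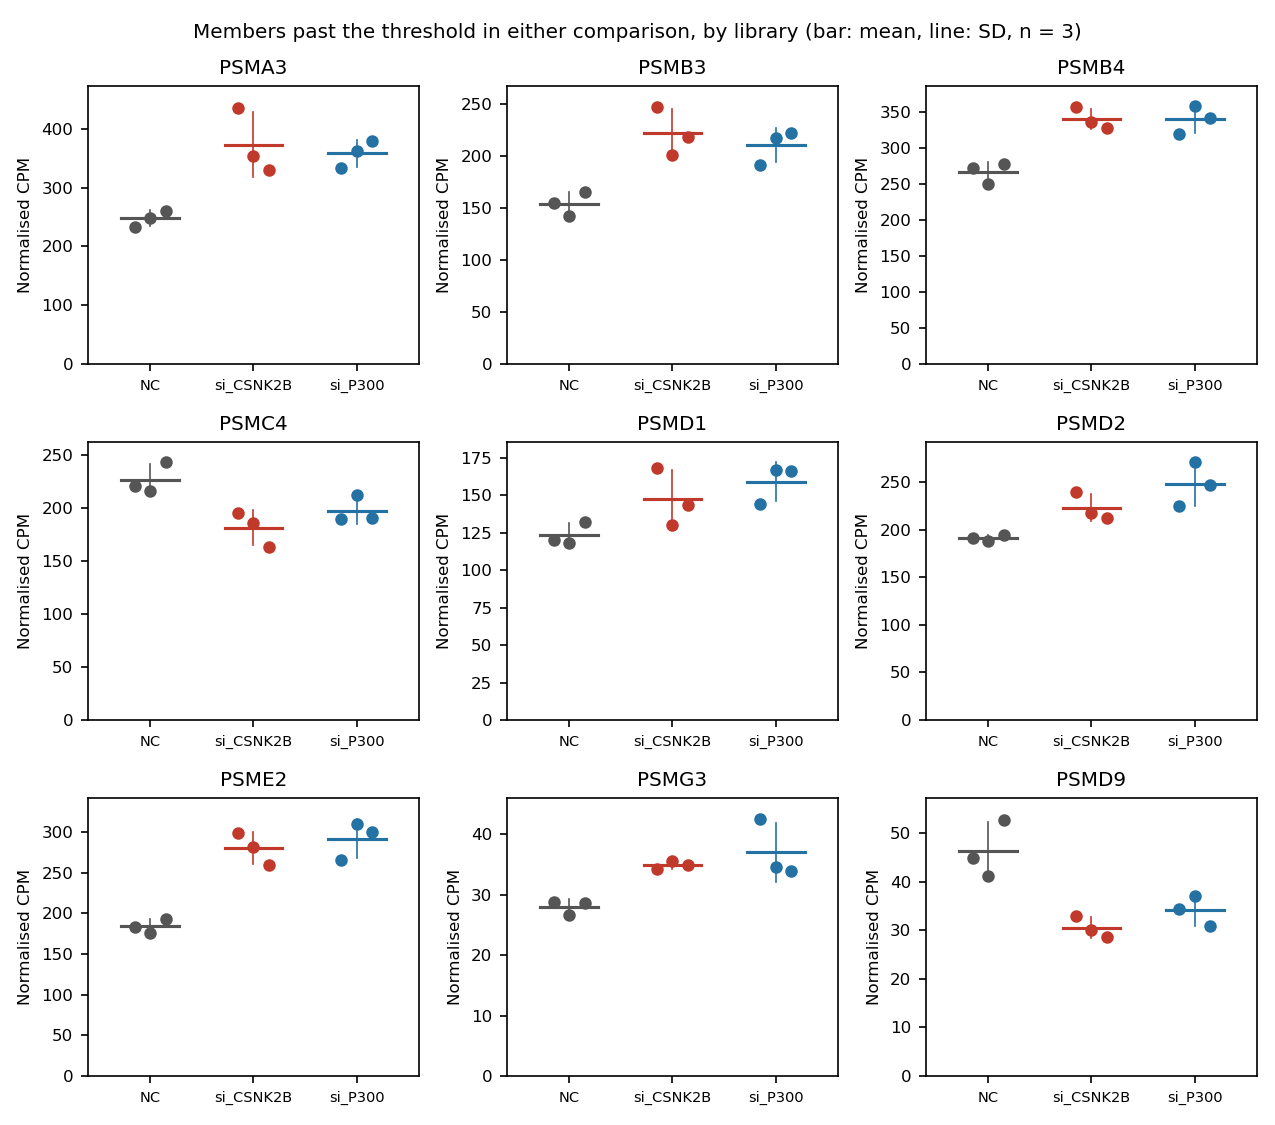
Normalised CPM (y axis, from 0) of the 9 proteasome genes called in either comparison, by group (x axis); points are libraries, horizontal bars means and vertical lines SD of 3 libraries. PSMA3, PSMB3, PSMB4, PSME2 and PSMG3 lie above NC in both knockdown groups, and PSMD9 and PSMC4 below.

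Of the 17 genes of the regulatory particle, none rose and 1 fell in si_CSNK2B, and 2 rose and none fell in si_P300. These are 5.88% and 11.8% of the particle, against 34.0% and 28.3% of all tested genes called. The share that rose in si_P300 is near the 13.6% of all tested genes. The median difference was 0.00 and 0.01. Estimates were above 0 for 9 and 10 of the 17, against 6974 and 7067 of all 13129 tested genes.

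PSMC4, an ATPase of the base, was the gene that fell. It was measured at 221, 215 and 243 CPM in the NC libraries, 195, 186 and 163 CPM in the si_CSNK2B libraries and 189, 212 and 190.2 CPM in the si_P300 libraries. All knockdown libraries were below all NC libraries. The difference was -0.32 ± 0.105 (SE, edgeR adjusted p = 0.034) in si_CSNK2B, and -0.20 ± 0.105 (SE, edgeR adjusted p = 0.172) in si_P300, where it was not called. The call in si_CSNK2B held in 13 of 19 alternatives: it was lost with library sizes alone (0.115), without NC replicate 1 (0.0788), without NC replicate 3 (0.143), without si_CSNK2B replicate 2 (0.0578) and without si_CSNK2B replicate 3 (0.11). The other ATPases, PSMC1, PSMC2, PSMC3, PSMC5 and PSMC6, had differences from -0.11 to 0.10 and were not called. PSMC1 has 13 annotated pseudogenes named after it, so its count may share reads with copies.

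PSMD1 and PSMD2, the large scaffold subunits of the base, rose in si_P300. PSMD1 was measured at 120.4, 118 and 132 CPM in the NC libraries, 168, 130.3 and 143 CPM in the si_CSNK2B libraries and 144, 167 and 166 CPM in the si_P300 libraries. One si_CSNK2B library lay within the NC range, and the si_P300 libraries did not overlap NC. Its difference was 0.25 ± 0.117 (SE, edgeR adjusted p = 0.112) in si_CSNK2B and 0.36 ± 0.117 (SE, edgeR adjusted p = 0.0365) in si_P300. Without si_CSNK2B replicate 1 the difference in si_CSNK2B was 0.14. The call in si_P300 held in 12 of 19 alternatives and was lost with no filter (0.0631), without NC replicate 1 (0.124), without NC replicate 2 (0.149), without NC replicate 3 (0.0666), without si_P300 replicate 2 (0.0857) and without si_P300 replicate 3 (0.109).

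PSMD2 was measured at 192, 188 and 194 CPM in the NC libraries, 239, 218 and 212 CPM in the si_CSNK2B libraries and 225, 271 and 247 CPM in the si_P300 libraries. The NC libraries were close together and every knockdown library was higher. The difference was 0.22 ± 0.1 (SE, edgeR adjusted p = 0.106) in si_CSNK2B and 0.37 ± 0.1 (SE, edgeR adjusted p = 0.0166) in si_P300. In si_P300 the call was lost without NC replicate 1 (0.0655), without NC replicate 2 (0.0793), without NC replicate 3 (0.06) and without si_P300 replicate 2 (0.0555). In neither gene did the knockdown groups differ from each other at the threshold: the si_CSNK2B minus si_P300 difference of PSMD1 was -0.11 (95% interval -0.36 to 0.14) and that of PSMD2 -0.15 (-0.37 to 0.07). PSMD4, a ubiquitin receptor of the base, differed from NC by 0.03 and 0.05.

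None of the 8 lid genes was called, against 34.0% and 28.3% of all tested genes in si_CSNK2B and si_P300. PSMD14, the deubiquitinase of the lid, had differences of -0.22 and -0.21 with libraries below NC in both groups (edgeR adjusted p = 0.136 and 0.171). PSMD7, its partner subunit, was measured at 133, 129.7 and 145 CPM in the NC libraries, 129.9, 107 and 103 CPM in the si_CSNK2B libraries and 127, 133 and 122 CPM in the si_P300 libraries. Only si_CSNK2B replicates 2 and 3 were lower than the other libraries by a clear margin. The difference was -0.26 ± 0.109 (SE, edgeR adjusted p = 0.0856) in si_CSNK2B and -0.09 ± 0.109 (SE, edgeR adjusted p = 0.567) in si_P300, and without si_CSNK2B replicate 1 it became -0.37 with an edgeR adjusted p of 0.0192. PSMD11, PSMD12, PSMD13, PSMD3, PSMD6 and PSMD8, structural subunits of the lid, had differences from -0.12 to 0.19.

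In each knockdown library the core median was above the regulatory median, both taken as differences from the NC mean. The median log2 difference of the core genes from the NC mean, minus that of the regulatory genes, was 0.01, -0.03 and 0.02 in the NC libraries. In si_CSNK2B it was 0.17, 0.19 and 0.15, and in si_P300 0.17, 0.31 and 0.22. All 6 knockdown libraries were above all NC libraries. The NC libraries centre on their own mean by construction, and every knockdown value shares the error of that mean. The 6 knockdown values are therefore not independent of each other. How often other gene sets of this size separate in this way was not tested.

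Summed levels per length were also compared. The ratio of summed TPM (deposited values per kilobase, scaled to a common total) of the core to that of the regulatory genes was 1.72, 1.69 and 1.74 in NC. It was 2.12, 2.09 and 2.14 in si_CSNK2B, and 2.01, 2.06 and 2.05 in si_P300. Both measures put the knockdown libraries above NC, but they order the knockdown groups differently: the group mean of the median difference was 0.171 in si_CSNK2B and 0.234 in si_P300, and that of the ratio 2.12 and 2.04. The share of all TPM that the 46 genes held was 0.881% to 0.954% in NC, 1.01% to 1.13% in si_CSNK2B and 1.02% to 1.11% in si_P300. This share is not scaled by TMM, so it also depends on the levels of all other genes, and that part was not tested. With limma on log2(TPM + 1), the median difference of all genes from NC was 0.04 in si_CSNK2B and 0.06 in si_P300. The median difference, the ratio and the share are descriptions over genes chosen by name, and no test was made. Core genes have shorter transcripts, with a median effective length of 0.955 kb against 1.70 kb for the regulatory genes, and the part of length in the difference was not tested. Libraries also moved as a whole, NC included. In NC replicate 3, 14 of 14 core and 16 of 17 regulatory genes were above the NC mean, and its core median difference of 0.112 exceeded those of si_CSNK2B replicate 3 (0.0649) and si_P300 replicate 1 (0.10), so the core medians alone overlapped between groups. In si_CSNK2B replicate 1, 14 of 14 core and 13 of 17 regulatory genes were above the NC mean, and in si_CSNK2B replicate 3, 9 and 5.

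**Figure D3:**
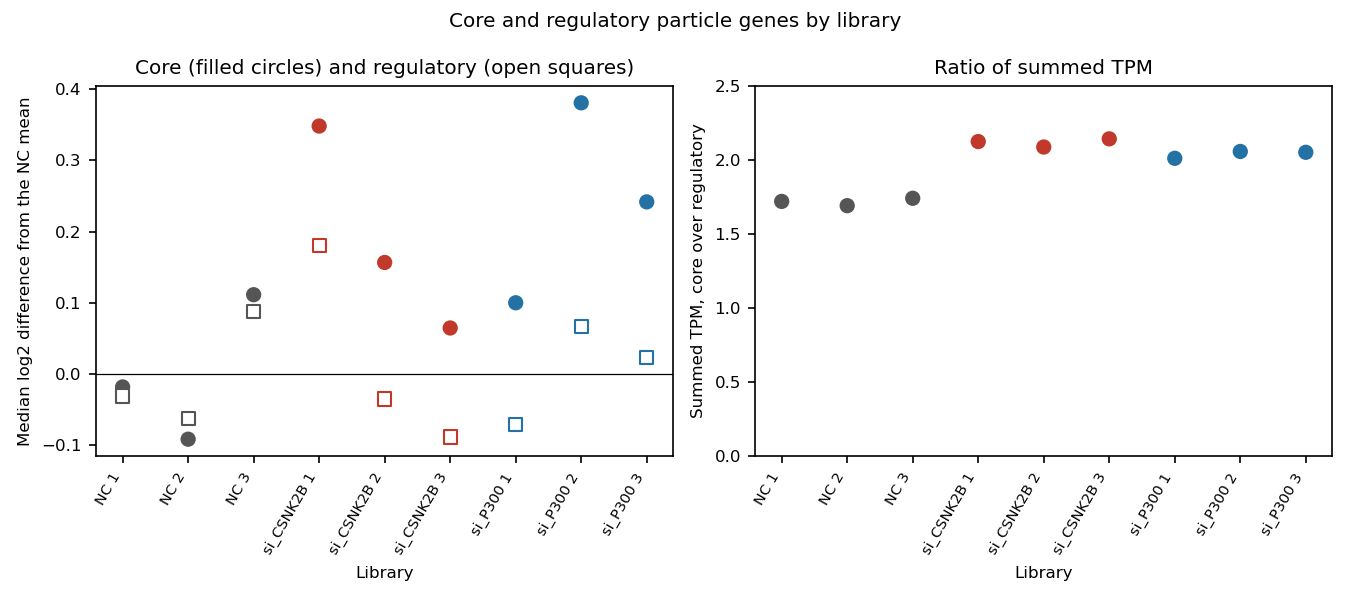
Left, median log2 difference from the NC mean of the 14 core genes (filled circles) and the 17 regulatory genes (open squares) in each of the 9 libraries (x axis). Right, ratio of summed TPM of core to regulatory genes (y axis from 0), which was 1.69 to 1.74 in NC and 2.01 to 2.14 in the knockdown libraries.

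Of 12 tested assembly factors, activators and inhibitors, 2 rose and 1 fell in each comparison. These are 25% of the list, against 34.0% of all tested genes called in si_CSNK2B and 28.3% in si_P300. PSMG3, a chaperone of alpha ring assembly, was measured at 28.9, 26.6 and 28.6 CPM in the NC libraries, 34.3, 35.6 and 34.9 CPM in the si_CSNK2B libraries and 42.6, 34.6 and 33.9 CPM in the si_P300 libraries. Knockdown libraries were all above NC. The difference was 0.32 ± 0.113 (SE, edgeR adjusted p = 0.0488) in si_CSNK2B and 0.40 ± 0.113 (SE, edgeR adjusted p = 0.0205) in si_P300. The call in si_CSNK2B held in only 8 of 19 alternatives: it was lost with DESeq2 (0.0558), with RLE size factors (0.0572), with no filter (0.0851), without NC replicate 1 (0.104), without NC replicate 2 (0.167), without NC replicate 3 (0.11), without si_CSNK2B replicate 1 (0.0749), without si_CSNK2B replicate 2 (0.104), without si_CSNK2B replicate 3 (0.0953) and without si_P300 replicate 3 (0.0551). In si_P300 it was lost without NC replicate 1 (0.0589), without NC replicate 2 (0.101), without NC replicate 3 (0.0626) and without si_P300 replicate 1 (0.0622).

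PSMG4, the partner of PSMG3, was measured at 24.7, 24.6 and 28.8 CPM in the NC libraries, 33.3, 29.4 and 33.1 CPM in the si_CSNK2B libraries and 24.5, 27.3 and 31.5 CPM in the si_P300 libraries. Its libraries overlapped those of NC in si_P300 but not in si_CSNK2B. The difference was 0.29 ± 0.125 (SE, edgeR adjusted p = 0.0881) in si_CSNK2B and 0.09 ± 0.125 (SE, edgeR adjusted p = 0.619) in si_P300. The estimate in si_CSNK2B changed sign on the log2(TPM + 1) scale, to -0.0349. PSMG1 and PSMG2, which form the other chaperone pair, differed by -0.15 and -0.18 and by -0.26 and -0.38. POMP, which starts beta ring assembly, differed by 0.17 and 0.18, with intervals of -0.07 to 0.41 and -0.06 to 0.42.

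PSMD9, a chaperone of base assembly, was the gene that fell in both comparisons. It was measured at 44.9, 41.1 and 52.7 CPM in the NC libraries, 32.8, 30.0 and 28.7 CPM in the si_CSNK2B libraries and 34.4, 37.1 and 30.8 CPM in the si_P300 libraries. NC libraries were all above the knockdown libraries. The difference was -0.60 ± 0.122 (SE, edgeR adjusted p = 0.00304) in si_CSNK2B and -0.44 ± 0.122 (SE, edgeR adjusted p = 0.0193) in si_P300. In si_CSNK2B 19 of 19 alternatives kept the call. In si_P300 it was lost with library sizes alone (0.0523), without NC replicate 1 (0.0522), without NC replicate 3 (0.106) and without si_P300 replicate 3 (0.0793). On GENCODE 29 the gene overlaps WDR66 on the same strand. The other base chaperones were PSMD10 (gankyrin), with differences of 0.22 and 0.20, and PSMD5. PSMD5 lay near the floor at 0.475, 0.178 and 0.408 CPM in the NC libraries, 0.117, 0.297 and 0.323 CPM in the si_CSNK2B libraries and 0.440, 0.276 and 0.611 CPM in the si_P300 libraries and was not tested.

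PSME2 rose in both comparisons. It encodes a subunit of the activator ring that interferon induces and that caps the core in place of the regulatory particle. It was measured at 183, 176 and 193 CPM in the NC libraries, 299, 282 and 259 CPM in the si_CSNK2B libraries and 265, 309.9 and 300.2 CPM in the si_P300 libraries. The groups were far apart, with the lowest knockdown library above the highest NC library. The difference was 0.60 ± 0.102 (SE, edgeR adjusted p = 0.000971) in si_CSNK2B and 0.66 ± 0.102 (SE, edgeR adjusted p = 0.000724) in si_P300, past the threshold in 19 of 19 alternatives and in 19 of 19.

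PSME1, the other subunit of the same ring, was measured at 250.1, 231 and 248 CPM in the NC libraries, 292, 283 and 259 CPM in the si_CSNK2B libraries and 217, 377 and 304 CPM in the si_P300 libraries. Its si_P300 libraries were scattered, with replicate 1 below NC. The difference was 0.19 ± 0.162 (SE, edgeR adjusted p = 0.374) in si_CSNK2B and 0.30 ± 0.162 (SE, edgeR adjusted p = 0.188) in si_P300. Without si_P300 replicate 1 it passed in si_P300 (edgeR adjusted p = 0.00808), the only one of 19 alternatives in which it did. PSME3 and PSME4, activators of nuclear proteasomes, had differences of 0.10 and 0.10 and of -0.05 and 0.01. PSMF1, an inhibitor of the core particle in vitro, had -0.25 and -0.19. Of the genes matched by letters alone, PSMC3IP had -0.31 and 0.00 and PSME3IP1 0.01 and -0.01.

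The libraries of si_P300 were less alike than those of the other groups for some of these genes. Without si_P300 replicate 1, the counts of called proteasome genes were 10 higher and 1 lower in si_P300, and 7 higher and 2 lower in si_CSNK2B. Its level of HMOX1, an oxidative stress gene, was 328 CPM against 115 and 109 CPM in the other libraries of the group, and its part in the results was not tested.

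No proteasome gene was called between the knockdown groups. At an adjusted p under 0.05, edgeR called 0 of 45, and 0.0% of all tested genes. Libraries did not overlap for 2 of the 45, PSMD13 and PSMC3IP, the latter matched by letters alone, against 7.14% of all tested genes. At an unadjusted p under 0.05 there were 661 of all genes and 0 proteasome genes, and DESeq2 called 8 genes, none of them a proteasome gene. Estimates of si_CSNK2B minus si_P300 ran from -0.17 (PSMD7, 95% interval -0.41 to 0.07) to 0.20 (PSMG4, -0.07 to 0.48) among proteasome genes proper, and PSMC3IP had -0.31 (-0.67 to 0.04). That no gene was called does not show that the knockdowns act alike.

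Levels per length were compared between genes in TPM. In NC, core genes ran from 52.0 ± 2.80 TPM (PSMB2) to 549 ± 39.2 TPM (PSMA7), with a median of 315. Next to PSMA7 came PSMB4 at 539 ± 17.8 TPM, PSMA6 at 534 ± 38.2 TPM and PSMA3 at 480.1 ± 26.1 TPM. The levels of PSMA7, PSMB4 and PSMA6 lay within 1 SD of each other. Regulatory genes ran from 58.2 ± 4.21 TPM (PSMD12) to 403 ± 22.4 TPM (PSMD8), with a median of 150.4. PSME1 at 464 ± 11.5 TPM and PSME2 at 422 ± 12.2 TPM were as abundant as core genes.

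Lower levels were found for PSMG3 at 54.9 ± 1.60 TPM, PSMG4 at 49.8 ± 5.42 TPM, PSMD9 at 30.3 ± 3.32 TPM, PSME4 at 28.4 ± 2.73 TPM and PSMF1 at 25.9 ± 1.46 TPM. PSMD5 was at 0.193 ± 0.0764 TPM, the lowest of the 46. In the knockdown groups the mean level of PSMA3 reached 745 TPM in si_CSNK2B and 724 TPM in si_P300, the highest mean among core genes there, within 1 SD of PSMB4 at 711 and 718 TPM. The order of the 46 genes otherwise moved little, with a Spearman rho across genes of 0.990 between NC and si_CSNK2B and 0.988 between NC and si_P300, as a description over genes that share libraries. Subunits that stand in equal number in the complex had levels per length that differed by up to 10.5 times within the core in NC. The lowest, PSMB2, had an effective length of 4.375 kb and a mean of 130 CPM in NC. The highest, PSMA7, had 0.913 kb and 286 CPM. The part of length in this range was not tested.

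**Figure D4:**
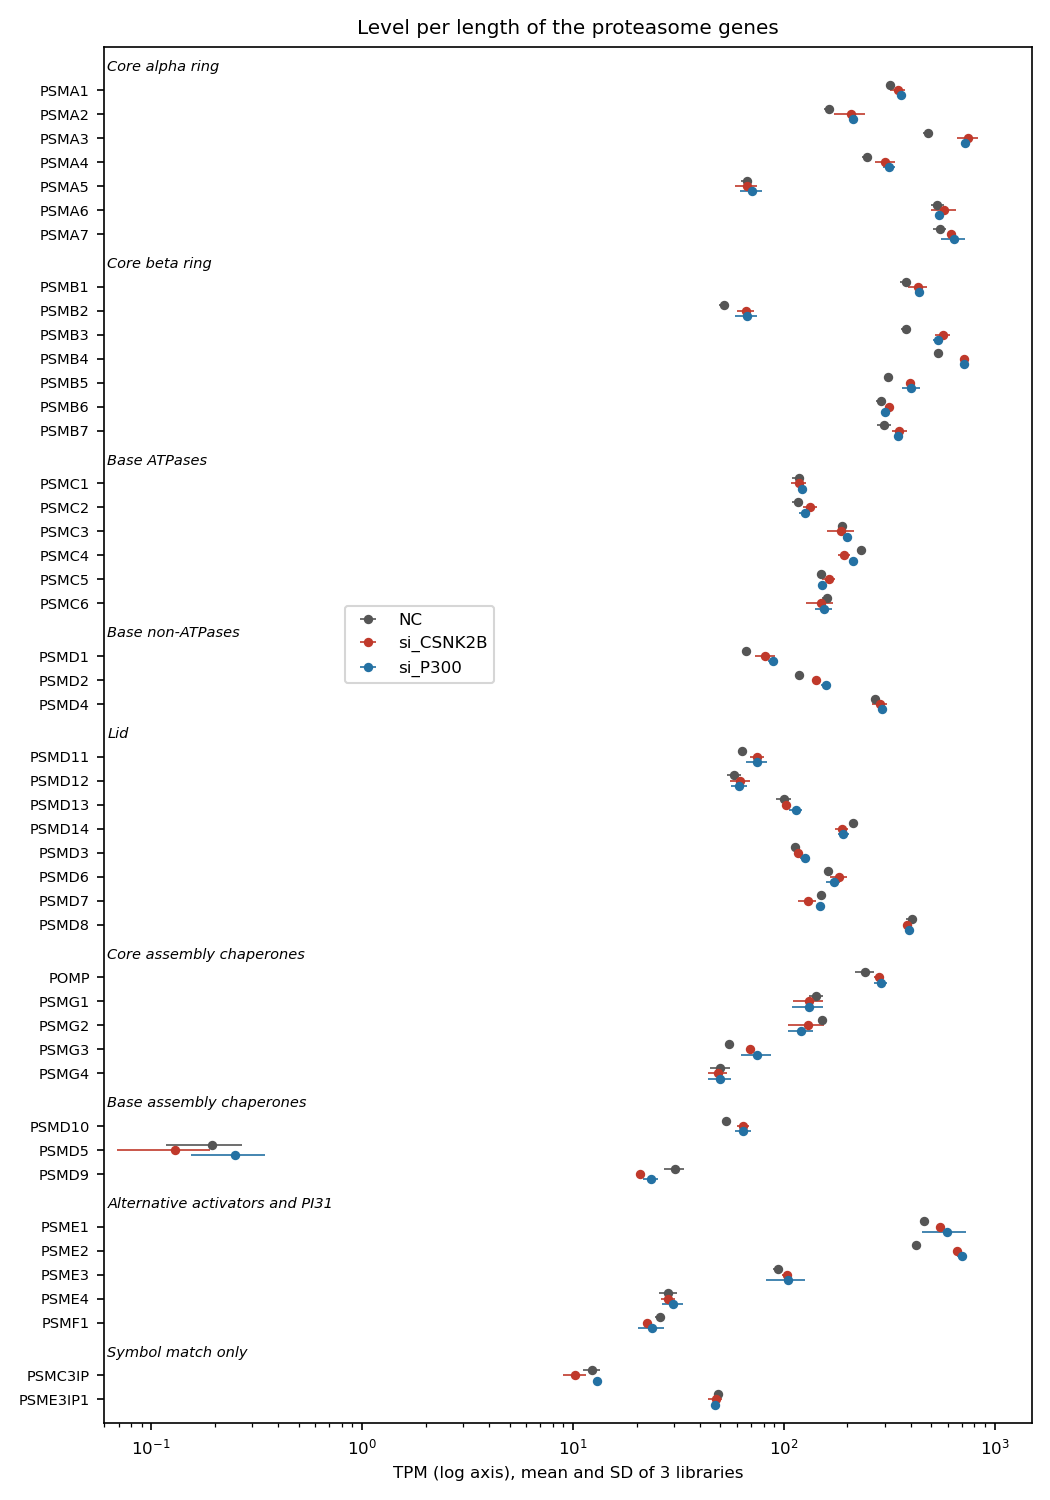
Level per length (TPM, log axis) of the 46 proteasome genes (y axis, by role) in NC, si_CSNK2B and si_P300; points are means and lines SD of 3 libraries. Core genes centre near 315 TPM in NC, regulatory genes near 150.4 TPM, and PSMD5 lies apart from all others.

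Regulators of proteasome transcription were lower in the knockdown groups. Of 8 listed, 5 fell and none rose in each comparison, where 17.8% and 14.7% of all tested genes fell. This list and the gene lists below were chosen with earlier results of these data known, so their counts are descriptions. NFE2L1 was measured at 384, 361 and 406 CPM in the NC libraries, 164, 202 and 138 CPM in the si_CSNK2B libraries and 213, 206 and 189.8 CPM in the si_P300 libraries. The highest knockdown library lay far below the lowest NC library. It fell by 1.19 ± 0.132 on the log2 scale in si_CSNK2B (edgeR adjusted p = 5.79e-05) and by 0.92 ± 0.131 in si_P300 (adjusted p = 0.000466).

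NFE2L2, the related oxidative stress factor NRF2, was measured at 214, 258 and 228 CPM in the NC libraries, 132, 107 and 114 CPM in the si_CSNK2B libraries and 183, 112 and 149 CPM in the si_P300 libraries. Its si_P300 replicate 1 lay between NC and the other libraries. The difference was -0.98 ± 0.162 (SE, edgeR adjusted p = 0.000836) in si_CSNK2B and -0.66 ± 0.161 (SE, edgeR adjusted p = 0.0107) in si_P300. The small MAF proteins, with which both factors bind DNA, fell too, with -3.06 and -2.34 for MAFF, -0.83 and -0.94 for MAFG and -1.25 and -1.13 for MAFK (log2 differences in si_CSNK2B and si_P300, all past the threshold in every one of 19 alternatives). DDI2, the protease that activates NFE2L1, and NGLY1, the glycanase that processes it, had 0.24 and 0.12 and -0.21 and -0.16. KEAP1, the adaptor that directs NFE2L2 to degradation, had -0.27 and -0.09. These 3 were not called.

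Among genes that supply ubiquitin, UBB had log2 differences of 0.01 and 0.08 in si_CSNK2B and si_P300, and RPS27A had -0.02 and -0.15. The activating enzymes UBA1 and UBA6, which charge ubiquitin for transfer, had 0.12 and 0.21 and -0.15 and 0.05, and these 4 were not called.

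Of 12 other subunits and partners, 4 fell and none rose in each comparison, where 17.8% and 14.7% of all tested genes fell. ZFAND2A, a stress-induced protein that binds the regulatory particle, was measured at 29.9, 37.3 and 43.8 CPM in the NC libraries, 8.11, 7.43 and 8.72 CPM in the si_CSNK2B libraries and 11.5, 8.27 and 7.03 CPM in the si_P300 libraries. Its knockdown libraries lay far below NC. The difference was -2.19 ± 0.197 (SE, edgeR adjusted p = 1.38e-05) in si_CSNK2B and -2.04 ± 0.194 (SE, edgeR adjusted p = 3.46e-05) in si_P300. AKIRIN2, which brings proteasomes into the nucleus, differed by -0.48 ± 0.0985 (SE, edgeR adjusted p = 0.00304) in si_CSNK2B and -0.59 ± 0.0987 (SE, edgeR adjusted p = 0.00121) in si_P300. ZFAND5, a proteasome activator known from mouse muscle, differed by -0.44 ± 0.114 (SE, edgeR adjusted p = 0.0116) in si_CSNK2B and -0.59 ± 0.114 (SE, edgeR adjusted p = 0.00303) in si_P300, a call lost in si_CSNK2B with library sizes alone (0.0565). FBXO7, a ubiquitin ligase subunit that binds PSMF1, differed by -0.39 ± 0.106 (SE, edgeR adjusted p = 0.0147) in si_CSNK2B and -0.31 ± 0.106 (SE, edgeR adjusted p = 0.0467) in si_P300, and its call in si_P300 held in 8 of 19 alternatives. It was lost there with library sizes alone (0.135), without NC replicate 1 (0.163), without NC replicate 2 (0.0652), without NC replicate 3 (0.117), without si_CSNK2B replicate 2 (0.0554), without si_P300 replicate 1 (0.0907) and without si_P300 replicate 3 (0.145). In si_CSNK2B it was lost without NC replicate 1 (0.0684) and without si_CSNK2B replicate 3 (0.0545). The small lid subunit SEM1 had 0.23 and 0.26, the ubiquitin receptor ADRM1 -0.01 and 0.10, and the deubiquitinases USP14 and UCHL5 -0.01 and 0.08 and -0.22 and -0.05, none of them called.

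Shuttles that carry ubiquitinated proteins to the proteasome and cofactors of the VCP unfoldase were called in either direction. Of 11, 2 rose and 4 fell in each comparison. The share that rose is near that of all tested genes (16.2% and 13.6%), and 17.8% and 14.7% of all tested genes fell. RAD23B, a shuttle, was measured at 383, 372 and 420.3 CPM in the NC libraries, 288, 286 and 229.6 CPM in the si_CSNK2B libraries and 273, 283 and 278 CPM in the si_P300 libraries. Both knockdown groups lay below NC without overlap. The difference was -0.55 ± 0.109 (SE, edgeR adjusted p = 0.00265) in si_CSNK2B and -0.50 ± 0.109 (SE, edgeR adjusted p = 0.00609) in si_P300. FAF1, a VCP cofactor, differed by -0.997 ± 0.147 (SE, edgeR adjusted p = 0.000404) in si_CSNK2B and -0.81 ± 0.146 (SE, edgeR adjusted p = 0.00195) in si_P300. UBQLN4, another shuttle, rose by 0.58 ± 0.106 (SE, edgeR adjusted p = 0.0016) in si_CSNK2B and 0.45 ± 0.106 (SE, edgeR adjusted p = 0.00819) in si_P300. VCP itself had 0.21 and 0.29 and was not called.

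Genes that proteasome inhibition or misfolded proteins induce were mostly lower. Of 12 listed, 9 fell and 2 rose in each comparison, where 17.8% and 14.7% of all tested genes fell and 16.2% and 13.6% rose. ZFAND2A is also among the partners above. BAG3, a co-chaperone, differed by -1.28 ± 0.125 (SE, edgeR adjusted p = 2.40e-05) in si_CSNK2B and -1.22 ± 0.124 (SE, edgeR adjusted p = 5.26e-05) in si_P300. HMOX1 differed by -4.15 and -2.93 on the log2 scale. HSPA8, the constitutive heat shock protein, rose by 1.33 ± 0.127 (SE, edgeR adjusted p = 2.04e-05) in si_CSNK2B and 1.28 ± 0.126 (SE, edgeR adjusted p = 4.29e-05) in si_P300. The list holds chaperones that other stresses induce as well, and it was chosen with earlier results of these data known.

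The 3 immunoproteasome subunits, which replace the catalytic beta subunits in immune cells and after interferon, were called higher in si_P300 and not in si_CSNK2B. Over all tested genes, 13.6% rose in si_P300 and 16.2% in si_CSNK2B. PSMB8 was measured at 44.9, 42.4 and 50.0 CPM in the NC libraries, 48.3, 52.6 and 50.8 CPM in the si_CSNK2B libraries and 52.0, 77.0 and 65.1 CPM in the si_P300 libraries. The si_P300 libraries ranged widely, and the lowest was close to NC. Its difference was 0.14 ± 0.136 (SE, edgeR adjusted p = 0.437) in si_CSNK2B and 0.50 ± 0.136 (SE, edgeR adjusted p = 0.0179) in si_P300. PSMB9 differed by 0.48 ± 0.188 (SE, edgeR adjusted p = 0.0664) in si_CSNK2B and 0.77 ± 0.187 (SE, edgeR adjusted p = 0.00977) in si_P300 and PSMB10 by 0.26 ± 0.152 (SE, edgeR adjusted p = 0.201) in si_CSNK2B and 0.50 ± 0.151 (SE, edgeR adjusted p = 0.0292) in si_P300. In si_P300, the call of PSMB8 was lost without NC replicate 1 (0.0682), without NC replicate 2 (0.0863), without si_P300 replicate 2 (0.0561) and without si_P300 replicate 3 (0.0513). That of PSMB10 was lost without NC replicate 1 (0.11), without NC replicate 2 (0.0641), without NC replicate 3 (0.0908) and without si_P300 replicate 3 (0.12). In si_CSNK2B, PSMB9 passed the threshold in 8 of 19 alternatives. These were library sizes alone (0.0232), a stricter filter (0.0455), only the 6 libraries compared (0.0213), without si_P300 replicate 1 (0.0324) and without si_P300 replicate 2 (0.0263). The others were limma on log2(TPM + 1) (0.0242), log2(TPM + 0.1) (0.0233) and log2(TPM + 1) without a filter (0.0459). The direct comparison of the knockdown groups called none of them (adjusted p = 0.946 for each), so a difference between the siRNAs was not shown. PSMB8 and PSMB9 overlap each other and PSMB8-AS1, and their reads may be shared.

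**Figure D5:**
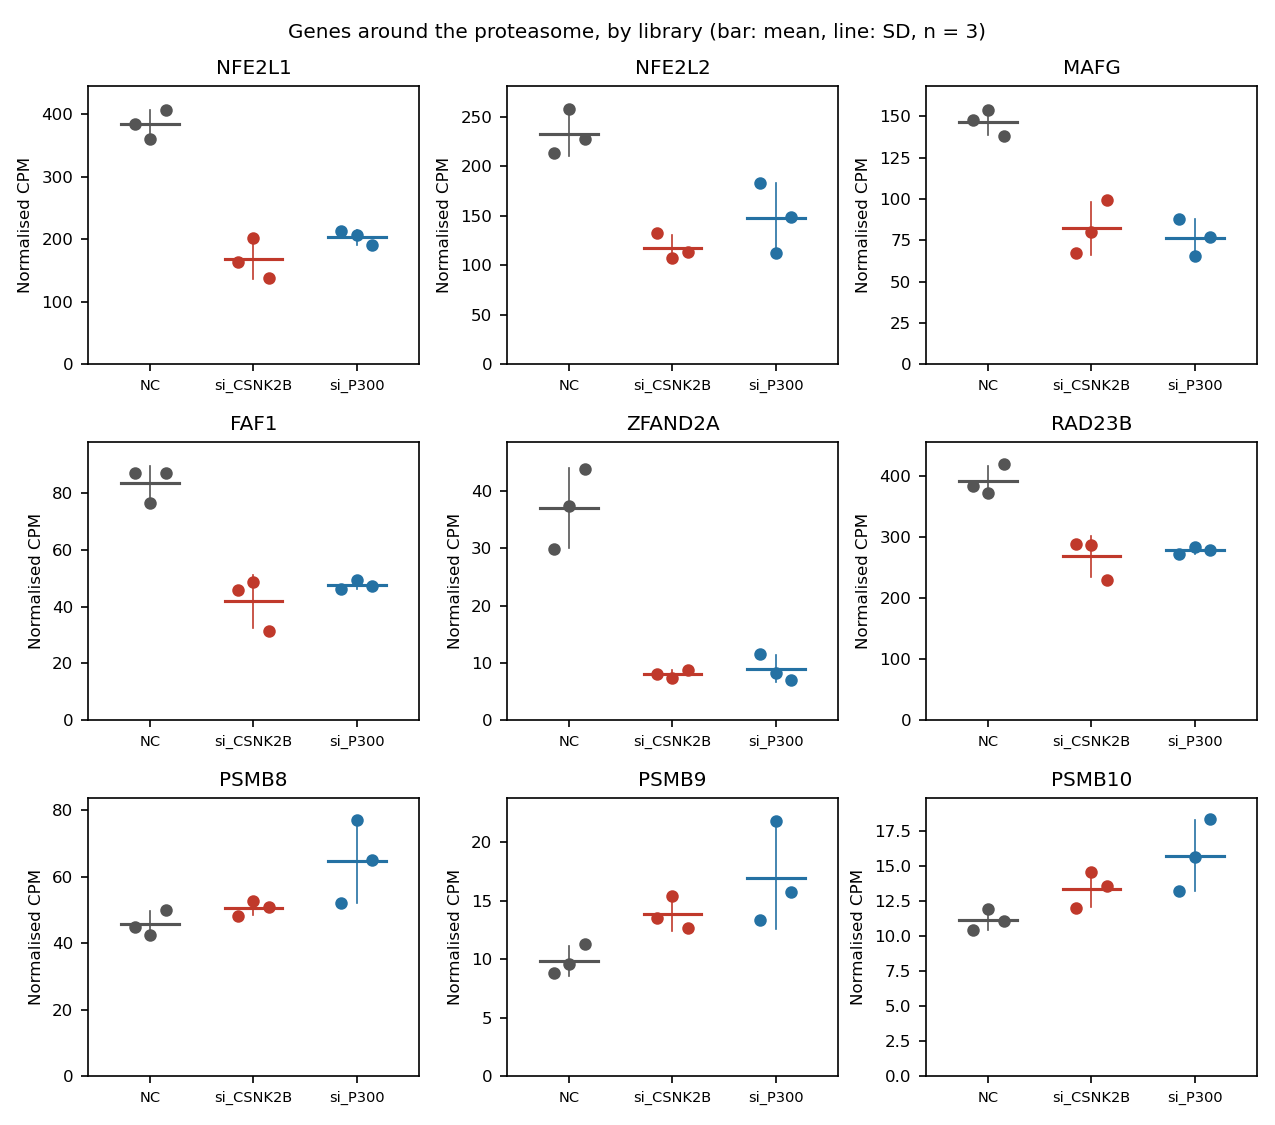
Normalised CPM (y axis, from 0) of 9 genes around the proteasome by group (x axis); points are libraries, horizontal bars means and vertical lines SD of 3 libraries. NFE2L1, NFE2L2, MAFG, FAF1, ZFAND2A and RAD23B lie below NC in both knockdown groups, and PSMB8, PSMB9 and PSMB10 are highest in si_P300.

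Promoter sequences are shown because NFE2L1, NFE2L2 and small MAF proteins are known to bind the antioxidant response element, whose core letters are TGACNNNGC. RefSeq promoters of GRCh38.p14, from 250 bases before to 50 bases after a gene start, were found for 40 of the 46 genes, with 50 starts. None was matched for PSMG3, PSMA7, PSMB1, PSMB6, PSMB7 and PSMD4. Both strands were searched. The core letters stood in 14 of 50 windows (28%), against 13.3% of the 35116 promoters in the reference table and 14.2% of promoters of tested genes. By role they stood in 2 of 14 core windows, 5 of 18 regulatory windows and 7 of 14 windows of assembly factors and activators. A match of letters is a description and does not show binding.

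Called genes with a match were PSMB3, PSME2, PSMD9, PSMC4 and PSMD1, that is both genes that rose and genes that fell. PSMA3, the core gene with the largest difference, held none. The windows of these 5 genes are printed on the strand of the gene, with each match in capitals. The match in PSMB3 began 104 bases before the gene start on the gene strand. PSMD9 had 2, at 149 bases before on the opposite strand and at 102 bases before on the gene strand. That of PSME2 began 175 bases before the start on the gene strand. Those of PSMC4 and PSMD1 lay after the start, at base 28 on the opposite strand and at base 40 on the gene strand.

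PSMB3 (chr17:38752491-38752790, plus strand): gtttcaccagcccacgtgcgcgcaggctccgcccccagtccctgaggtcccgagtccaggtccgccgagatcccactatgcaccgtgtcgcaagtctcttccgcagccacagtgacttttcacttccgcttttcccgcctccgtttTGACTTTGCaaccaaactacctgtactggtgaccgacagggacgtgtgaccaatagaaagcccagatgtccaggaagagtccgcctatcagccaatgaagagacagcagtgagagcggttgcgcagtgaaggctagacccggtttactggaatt
PSME2 (chr14:24146561-24146860, minus strand): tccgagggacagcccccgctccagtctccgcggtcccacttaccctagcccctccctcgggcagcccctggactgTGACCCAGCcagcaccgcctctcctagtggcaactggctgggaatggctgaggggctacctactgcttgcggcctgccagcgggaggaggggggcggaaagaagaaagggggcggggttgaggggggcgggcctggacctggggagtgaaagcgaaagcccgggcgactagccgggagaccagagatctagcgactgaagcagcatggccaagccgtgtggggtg
PSMD9 (chr12:121888540-121888839, plus strand): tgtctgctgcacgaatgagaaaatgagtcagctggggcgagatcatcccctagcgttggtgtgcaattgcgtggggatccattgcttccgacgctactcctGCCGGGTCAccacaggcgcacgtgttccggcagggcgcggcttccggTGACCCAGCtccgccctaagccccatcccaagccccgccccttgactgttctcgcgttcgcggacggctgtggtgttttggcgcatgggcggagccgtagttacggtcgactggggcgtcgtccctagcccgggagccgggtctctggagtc
PSMC4 (chr19:39970915-39971214, plus strand): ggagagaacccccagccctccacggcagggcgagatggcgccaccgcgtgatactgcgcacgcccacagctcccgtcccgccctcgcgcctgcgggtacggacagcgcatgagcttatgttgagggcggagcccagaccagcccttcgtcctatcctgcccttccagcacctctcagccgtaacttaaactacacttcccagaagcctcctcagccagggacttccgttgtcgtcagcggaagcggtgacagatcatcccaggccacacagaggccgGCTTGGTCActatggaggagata
PSMD1 (chr2:231056617-231056916, plus strand): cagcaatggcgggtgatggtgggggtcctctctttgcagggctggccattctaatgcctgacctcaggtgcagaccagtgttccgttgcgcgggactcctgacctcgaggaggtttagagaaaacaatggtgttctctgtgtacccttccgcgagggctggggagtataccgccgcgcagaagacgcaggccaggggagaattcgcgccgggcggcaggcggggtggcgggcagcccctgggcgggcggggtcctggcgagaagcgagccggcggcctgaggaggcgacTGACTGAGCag

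Another pair of motifs was counted. CCAAT, the letters that NF-Y binds, stood in 7 of 14 core windows, 8 of 18 regulatory windows, 3 of 14 windows of assembly factors and activators, and 34.6% of all promoters. CCGGAA, an ETS family motif, stood in 13 of 18 regulatory windows (72.2%) in 2 of 14 core windows (14.3%) and in 7 of 14 windows of assembly factors and activators, against 17.2% of all promoters and 26.1% of promoters of tested genes. The motifs differ in their fixed letters, and matches of different motifs were counted apart. The promoters of PSMA3 and PSMD13, chosen after their matches were seen, show the arrangement in a core gene that rose and in a lid gene that did not pass the test. PSMA3 holds CCAAT at 35 bases before the start on the opposite strand, where it reads ATTGG, and at 18 bases before on the gene strand. PSMD13 (differences of -0.02 and 0.13) holds CCGGAA 3 times, at 236 bases before, at 12 bases before and at base 7. The share of starts was counted over promoters, and no test of the difference between the particles was made.

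PSMA3 (chr14:58244593-58244892, plus strand), CCAAT in capitals: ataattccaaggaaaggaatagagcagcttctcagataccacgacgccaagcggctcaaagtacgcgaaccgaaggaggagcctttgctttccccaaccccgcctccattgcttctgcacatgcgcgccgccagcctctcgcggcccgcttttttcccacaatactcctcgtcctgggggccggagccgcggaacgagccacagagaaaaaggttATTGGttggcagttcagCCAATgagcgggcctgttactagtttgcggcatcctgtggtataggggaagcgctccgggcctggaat
PSMD13 (chr11:236726-237025, plus strand), CCGGAA in capitals: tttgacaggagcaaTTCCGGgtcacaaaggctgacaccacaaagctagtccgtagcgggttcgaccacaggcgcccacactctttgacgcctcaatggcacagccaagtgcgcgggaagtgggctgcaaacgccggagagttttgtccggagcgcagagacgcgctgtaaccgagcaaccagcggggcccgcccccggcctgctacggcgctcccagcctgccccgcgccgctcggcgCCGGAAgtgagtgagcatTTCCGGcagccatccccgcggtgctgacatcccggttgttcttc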

How the data were processed

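RNA-seq of 9 libraries (3 groups, 3 labelled biological replicates each, 48 h after transfection) was sequenced by BGI as single-end 50 bp reads, per the labels' protocols. HISAT, Bowtie2 and GRCh38.p13 are named in the submitters' processing notes, while the counter, annotation and strand setting are not given in the sources used here. The authors deposited 1 table with estimated counts per gene, TPM and FPKM. It also holds normalized read counts, a signal scaled per library by the authors in a way the file headers do not state. This signal was not used. FPKM served only, together with the counts, to derive the effective lengths, and TPM served for levels between genes.

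Estimated counts were rounded to whole numbers, filtered (filterByExpr, minimum count 10), scaled by TMM and fitted over all 9 libraries with edgeR 4.0.16 (quasi-likelihood test, R 4.3.3, Benjamini-Hochberg adjustment, threshold 0.05). Alternatives were DESeq2 1.42.0, limma 3.58.1 on log2(TPM + 1) and log2(TPM + 0.1), other scalings and filters, a replicate block, and leaving out each library. With 3 against 3 libraries an exact permutation test cannot go below p = 0.1, so none was used. P-values measure the spread between labelled replicates. Totals were 13.1 to 18.3 M counts.

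The genes and lists were chosen with earlier results of these data known. Library values are given for the 10 proteasome genes of lowest p in each comparison and the lowest in each role, and up to 4 genes of lowest p are named per companion list, with NFE2L1, NFE2L2, CSNK2B and EP300 always given. PSME1, PSMD5, the listed genes without a call and the promoters of PSMA3 and PSMD13 were added after their values were seen. Of 46 genes, 45 were placed on GENCODE 29, 26 overlap another annotated gene, and 12 have 32 pseudogenes named after them, so reads may be shared. Promoters are from RefSeq, GRCh38.p14. Some genes of the companion and marker lists are not reported here by name, though the list counts and sums include them.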

Additional observations from a re-analysis of the deposited data

How the results depend on the processing

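The main counts were 5 higher and 2 lower in si_CSNK2B, and 7 higher and 1 lower in si_P300. In si_CSNK2B, the higher count became 17 with library sizes alone, 8 with the 6 libraries compared, 12, 11 and 10 with limma on log2(TPM + 1), log2(TPM + 0.1) and log2(TPM + 1) without a filter, and 3 at an adjusted p under 0.01. The lower count became 1 with library sizes alone, 1 with the replicate block and 1 at an adjusted p under 0.01. In si_P300, the higher count became 13 with library sizes alone, 11 in each of the 3 limma fits and 2 at an adjusted p under 0.01, and the lower count 0 with library sizes alone and 0 at an adjusted p under 0.01. The regulatory particle median in si_P300 became 0.12 with library sizes alone, a scaling that moves all genes. Leaving out 1 library gave 3 to 7 higher and 1 to 4 lower in si_CSNK2B. The 3 came without NC replicate 2, the 7 without si_P300 replicate 1, the 4 without si_CSNK2B replicate 1, and the 1 without NC replicate 1 or 3 or si_CSNK2B replicate 2 or 3. In si_P300 it gave 2 to 10 higher and 0 to 2 lower. The higher count was 3, 2 and 4 without NC replicates 1, 2 and 3 and 10 without si_P300 replicate 1, and the lower count 0 without NC replicate 1, NC replicate 3 or si_P300 replicate 3 and 2 without si_P300 replicate 2. The core minus regulatory median in si_CSNK2B ran from 0.155 to 0.265 when 1 library was left out, and from 0.155 to 0.265 and 0.201 to 0.259 over all 19 alternatives in si_CSNK2B and si_P300. Only some genes were followed for a change of sign. Among them, the estimates that changed sign were PSMG4 in si_CSNK2B in the 3 limma fits (-0.035, -0.036 and -0.035) and PSMD7 in si_P300 with library sizes alone (0.021). The third was PSMG4 in si_P300, which ran from -0.012 without si_P300 replicate 3 to 0.174 without si_P300 replicate 1. The regulatory particle median also changed sign, running from -0.048 to 0.127 in si_CSNK2B and from -0.053 to 0.125 in si_P300. The cause of these changes was not tested. The labels do not state whether the replicate numbers pair the samples. Same-numbered libraries correlated in their deviations at -0.29 to 0.0606, and differently numbered ones at -0.192 to 0.256. These correlations cannot show whether replicates were handled in matched sets. With the replicate block, 4 genes were higher and 1 lower in si_CSNK2B, and 6 higher and 1 lower in si_P300. The block ended the calls of PSMC4 and PSMG3 in si_CSNK2B and of PSMD1 and FBXO7 in si_P300, and the limma fits that of FBXO7 in si_P300.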
